A study of Mus musculus with 24 samples.

Results

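The cerebellum and the cerebral cortex of control mice were compared at postnatal day 21, in messenger RNA measured on Illumina bead arrays. The comparison rests on 8 of the 24 arrays in the series, 4 labelled Cerebellum Nestin Con and 4 labelled Cortex Nestin Con, and on every gene that passed a detection filter, which left 11114 genes. The remaining arrays hold the striatum of control mice and the same 3 regions of mice labelled Nestin THAP1 KO, in which Thap1, a zinc finger transcription factor gene mutated in an inherited dystonia, was deleted conditionally. Nestin is a gene of neural progenitor cells whose promoter is used to delete genes throughout the nervous system. The control animals are called Nestin Con in the titles and WT mice in the design text, while alleles, strain and sex of either group are not stated in the labels or design text. The design text names 4 such mice, and the labels do not match arrays to mice. Arrays of the 2 regions may therefore share animals. The p-values measure only the spread between arrays of the same group, pooled over all 24 arrays of the series, and this spread may be technical. Array numbers below are those of the labels, 17 to 20 for cerebellum and 9 to 12 for cortex, and each series of 4 values is given in that order.

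The cerebellum holds most of the neurons of the brain in a small number of types. Granule neurons receive mossy fibres and excite Purkinje neurons, the inhibitory output cells of the cerebellar cortex, while Golgi, stellate and basket cells are its interneurons and Bergmann glia are its radial astrocytes. The cerebral cortex is built of layered excitatory pyramidal neurons and several classes of inhibitory interneurons that express peptides such as somatostatin. In mice of this age the granule cells have largely finished migrating and cortical synapses are still being refined. Levels are given as normalized log2 intensity, and every difference is cerebellum minus cortex on that scale, so that a difference of 1 is 2-fold. A gene is called higher or lower when its adjusted p in limma, corrected over all genes by Benjamini-Hochberg, is under 0.05. In bulk tissue, fewer cells of a type and less RNA per cell cannot be told apart, and this holds for each cell type named below.

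The mean raw signal was between 328 and 484 on the 8 arrays, and 47.3 to 52.0% of 25697 probes were detected at a detection p under 0.01. Across the genes tested, arrays of the same region correlated at 0.983 to 0.988 in cerebellum and 0.983 to 0.988 in cortex (Pearson, 6 pairs each). Cerebellum and cortex arrays correlated at 0.904 to 0.919 over 16 pairs. For comparison, control cortex and control striatum arrays correlated at 0.953 to 0.965. These correlations are across genes, which are not independent replicates. The markers of each region stood on the arrays that carry its label, as the values of Pcp2 and Nrgn below show. No array correlated better with the other region than with its own.

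Of the 11114 genes, 5073 differed between the regions (45.6%), 2655 higher in cerebellum (23.9%) and 2418 lower (21.8%). At an unadjusted p under 0.05, 5736 genes differed. At an added requirement of 2-fold, 777 genes were higher (6.99%) and 847 lower (7.62%). Most differences were small: the median size was 0.73 among the higher genes and 0.75 among the lower ones. The largest differences leaned the other way from the counts, with 51 genes higher and 103 genes lower by more than 3. The 4 arrays of one region did not overlap the 4 of the other for 4546 genes (40.9%), among them 769 of the 777 and 841 of the 847. Sizes depended on the background: without its correction 343 genes were at least 2-fold higher and 412 lower, and Zic1, described below, moved from 5.47 to 4.49. Of the called genes, 251 higher ones were detected on no cortex array and 304 lower ones on no cerebellum array. For such a gene only a lower bound of the fold can be given, written as "at least", with the adjusted p of the fit. The bound sets the mean of the brighter region against the lowest detected signal of each array of the dim region, or the gene's own signal where that was higher. Values of a gene's other probes are fitted differences, also where a region did not detect the probe, and background limits their size there. The median over all genes was 0.02, and 0.00 with undetected genes at their bound or, where no bound applied, at 0. Where the median of a gene list is first given below, its value at the bounds follows if it differs. The counts of each list below stand against the 23.9% higher and 21.8% lower of all genes. Wherever a list below had 0 members in a direction by limma's adjusted p, it also had 0 at an unadjusted p under 0.05, except oxidative phosphorylation with 2 lower.

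**Figure D1:**
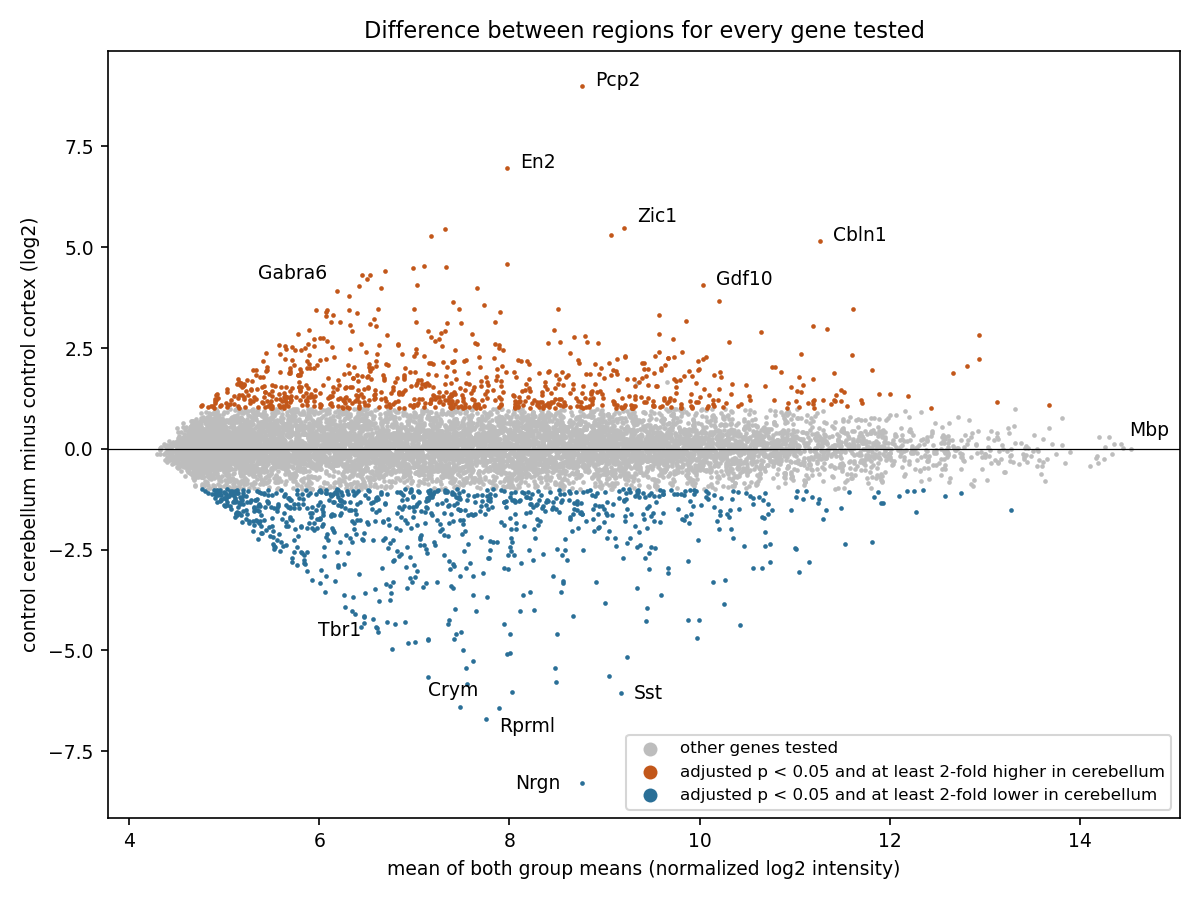
Each point is a gene, with the mean of both regions on the x axis and the log2 difference between cerebellum and cortex on the y axis. Orange and blue mark the 777 and 847 genes past the threshold and 2-fold; the narrowing at the left is where both regions were near background, and Pcp2 and Nrgn lie at the 2 ends.

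The most separated gene was Pcp2, which encodes a G protein modulator found in Purkinje neurons and retinal bipolar cells. Its level was 13.48, 13.45, 13.07 and 13.07 on the cerebellum arrays and 4.30, 4.24, 4.23 and 4.27 on the cortex arrays. It was detected on no cortex array, which puts it at least 306-fold higher in cerebellum (adjusted p = 2.34e-28, limma). At the other end stood Nrgn, which encodes neurogranin, a postsynaptic protein of forebrain neurons that holds calmodulin. Nrgn measured 4.45, 4.58, 4.70 and 4.73 on the cerebellum arrays and 12.78, 13.06, 12.92 and 12.86 on the cortex arrays, at least 255-fold lower in cerebellum (adjusted p = 3.86e-22). For both genes the 4 and 4 values lay at opposite ends of the scale and did not overlap.

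The sequences just upstream of both genes are shown because they bracket the whole comparison. Each run is the 250 bases before the annotated start, read 5' to 3' on the gene's strand, from RefSeq on GRCm38.p6. Capitals mark CAGATG, a form of E-box matched by NeuroD factors, and AGGTCA, the nuclear receptor half-site matched by ROR factors, on either strand. Pcp2 has 4 annotated starts, of which the one listed first was used (chr8:3625548-3625797, minus strand), and the Nrgn window is chr9:37552746-37552995, minus strand.
Pcp2: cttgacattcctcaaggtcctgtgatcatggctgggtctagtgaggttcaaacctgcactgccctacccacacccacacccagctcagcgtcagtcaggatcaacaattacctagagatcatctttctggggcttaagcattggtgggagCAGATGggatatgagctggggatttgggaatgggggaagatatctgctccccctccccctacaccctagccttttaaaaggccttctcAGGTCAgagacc
Nrgn: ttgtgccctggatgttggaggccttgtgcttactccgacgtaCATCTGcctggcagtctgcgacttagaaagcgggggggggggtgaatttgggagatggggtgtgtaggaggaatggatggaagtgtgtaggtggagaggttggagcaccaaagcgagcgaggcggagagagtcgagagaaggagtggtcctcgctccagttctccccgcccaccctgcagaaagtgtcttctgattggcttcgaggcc
The Pcp2 window holds CAGATG 100 bases and AGGTCA 12 bases before the start, counted to the base of the motif nearest the 5' end. The Nrgn window holds a single CAGATG, on the opposite strand and therefore printed as CATCTG. Over all genes of each kind with a listed promoter, CAGATG occurred in 10.4% of 567 windows of 2-fold higher genes, 10.7% of 600 windows of 2-fold lower genes and 10.2% of 8265 windows of all genes tested. AGGTCA occurred in 10.4, 9.17 and 10.2% of these windows. TATAAA, the core of the TATA box, occurred in 6.53, 9.83 and 6.86%. Over all 27025 promoters listed, genes not measured included, the shares were 14.5, 13.8 and 13.0% for these motifs in the same order, and no test was made of any of these shares.

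Transcription factors that pattern the hindbrain and the cerebellar primordium were higher in cerebellum nearly throughout. Of 30 listed, 18 were measured, and 17 of these were higher and none lower, with a median of 2.58 (2.15 at the bounds). Of the 9 detected in both regions, 9 were higher. En2, the Engrailed factor of the midbrain and hindbrain boundary, measured 11.46, 11.63, 11.27 and 11.46 on the cerebellum arrays and 4.27, 4.73, 4.36 and 4.65 on the cortex arrays. It was at least 86.9-fold higher (adjusted p = 9.34e-23), and its values did not overlap. Its relative En1 was detected on all 4 cerebellum arrays and no cortex array, with a bound of 1.39-fold (adjusted p = 6.19e-05). Zic1, a zinc finger factor of granule cell precursors and their progeny, measured 12.07, 12.41, 12.06 and 11.24 on the cerebellum arrays and 6.90, 6.16, 6.35 and 6.48 on the cortex arrays. The difference was 5.47 (SE 0.21, adjusted p = 1.61e-18), with array 20 the lowest of the cerebellum arrays. Zic1 was also present in striatum, where the 4 control striatum arrays averaged 9.40 ± 0.40 (SD), above the cortex mean of 6.47 ± 0.31. Zic4 followed it, at 9.05 ± 0.28 in cerebellum and 4.99 ± 0.30 in cortex, a difference of 4.06 (adjusted p = 8.54e-17). Zic2 was higher by 3.47.

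Zic1 and Zic4 lie head to head on chromosome 9, with annotated starts 3204 bases apart on opposite strands, and their upstream windows therefore face each other inside a shared interval. The windows are shown because both genes were among the 10 largest differences detected in both regions (Zic1 chr9:91365769-91366018, minus strand; Zic4 chr9:91368722-91368971, plus strand).
Zic1: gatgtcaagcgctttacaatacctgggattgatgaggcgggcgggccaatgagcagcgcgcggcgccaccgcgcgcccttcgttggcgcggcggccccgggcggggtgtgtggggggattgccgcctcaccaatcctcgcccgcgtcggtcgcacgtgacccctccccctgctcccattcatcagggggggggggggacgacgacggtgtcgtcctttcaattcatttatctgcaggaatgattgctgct
Zic4: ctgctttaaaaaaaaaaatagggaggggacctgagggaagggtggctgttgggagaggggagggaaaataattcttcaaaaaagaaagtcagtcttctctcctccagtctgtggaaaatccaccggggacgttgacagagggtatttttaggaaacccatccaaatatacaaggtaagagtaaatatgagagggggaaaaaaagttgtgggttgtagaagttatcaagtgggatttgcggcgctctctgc
Neither window holds any of these 3 motifs. They differ in base composition, with a GC content of 66.0% before Zic1 and 44.4% before Zic4.

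Other members of the hindbrain group mark particular lineages. Tfap2b, an AP-2 factor of cerebellar inhibitory interneurons, measured 9.37 ± 0.13 against 4.84 ± 0.26 (SD, n = 4), a difference of 4.54 (adjusted p = 5.43e-18). Tfap2a was at least 2.46-fold higher by its brightest probe, while its other probes, also undetected in cortex, gave differences of 0.71 and 0.78. Lhx1 and Lhx5 are LIM homeodomain factors needed for Purkinje cell development. Lhx1 was higher by 4.41 (adjusted p = 3.21e-16), or by 2.41 without background correction. In cortex Lhx1 was near background, at 5.25 on array 10 and 4.23 to 4.24 on the other arrays. Lhx5 was at least 4.54-fold higher. The Iroquois factors Irx3, Irx2 and Irx5 were each detected on 4 cerebellum arrays and no cortex array, at least 6.90-, 3.73- and 2.44-fold higher. Meis1, a homeobox cofactor present in granule cells, differed by 2.62. Gbx2, an early hindbrain factor, was the member that did not pass, detected on a single cortex array, but it was called lower without cortex array 12 and under median scaling (adjusted p = 0.0259 and 0.0127).

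Factors that pattern the telencephalon went the other way. Of 24 listed, 17 were measured, 10 lower in cerebellum and 1 higher, with a median of -1.03 (-0.80 at the bounds). Among the 7 detected in both regions, 4 were lower and 1 higher. Bcl11b, which specifies subcortical projection neurons and striatal neurons, measured 5.38, 4.74, 4.50 and 5.34 on the cerebellum arrays and 10.28, 10.27, 10.27 and 10.17 on the cortex arrays. The difference was -5.26 (SE 0.17, adjusted p = 5.03e-20), and 2 of 4 cerebellum arrays detected it. Tbr1, a T-box factor of deep-layer cortical neurons and, in development, of cerebellar nuclear neurons, measured 4.40, 4.37, 4.36 and 4.42 on the cerebellum arrays and 8.61, 8.95, 8.94 and 8.78 on the cortex arrays. It was at least 15.0-fold lower (adjusted p = 1.61e-19). Fezf2, a layer 5 selector, was at least 13.3-fold lower, and Dlx1, a factor of forebrain interneurons, at least 11.0-fold. The exception was Zbtb18, a repressor needed for cortical neuron differentiation, which was higher in cerebellum by 1.18 (adjusted p = 4.81e-09).

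**Figure D2:**
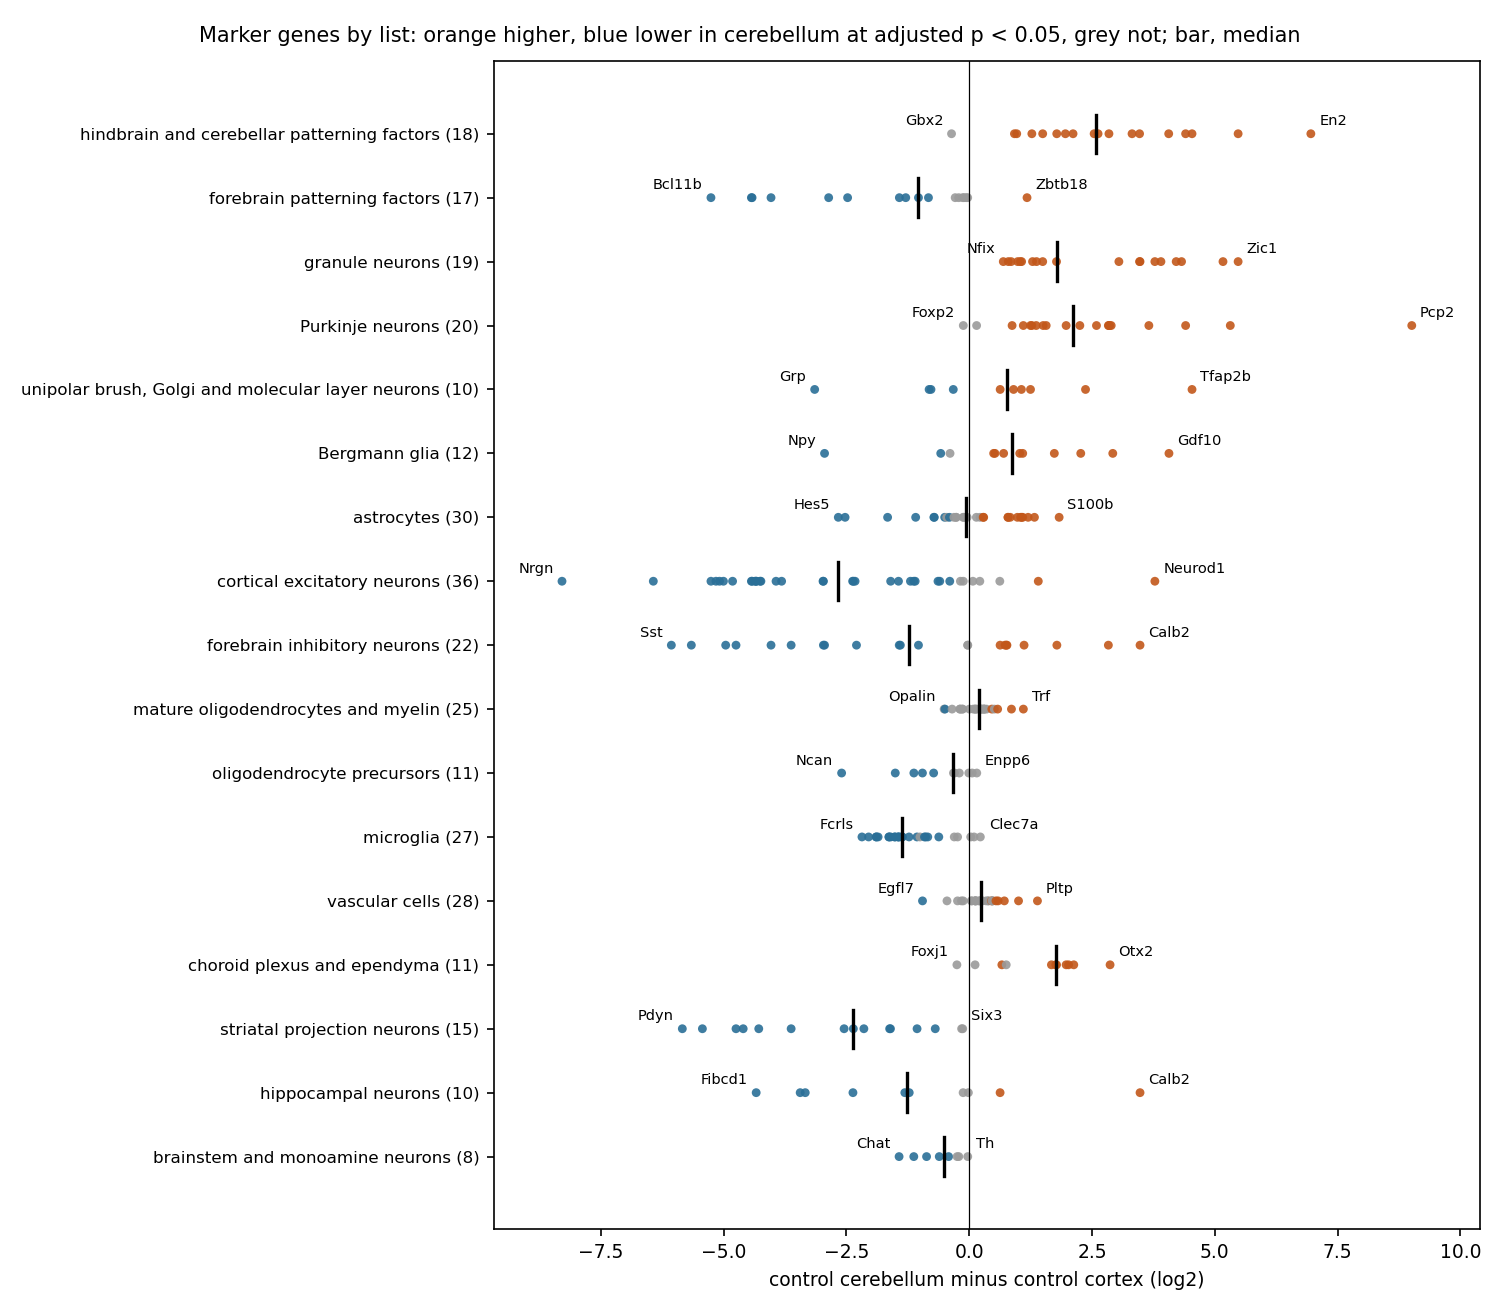
Points are measured members of each list, placed by their fitted log2 difference also where 1 region did not detect them, with the number measured in parentheses and black bars at the medians. Hindbrain factors, granule and Purkinje genes lie to the right and cortical excitatory, microglial and striatal genes to the left, while myelin and vascular genes lie near 0.

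Purkinje neuron genes were higher in cerebellum for 18 of 20 measured members of 32 listed, with none lower and a median of 2.11 (1.98 at the bounds). Of the 17 detected in both regions, 15 were higher. Atp2a3, the SERCA3 calcium pump of the endoplasmic reticulum, measured 11.83, 11.68, 11.39 and 12.02 on the cerebellum arrays and 6.46, 6.41, 6.55 and 6.24 on the cortex arrays. The difference was 5.31 (SE 0.17, adjusted p = 1.16e-20), with no overlap. Rgs8, a regulator that speeds the shut-off of G protein signals, was higher by 3.66 (adjusted p = 1.07e-19). Many other Purkinje genes handle calcium and inositol phosphates: Inpp5a, which removes a phosphate from inositol trisphosphate, was higher by 2.89, and the phospholipases Plcb3 and Plcb4 by 1.51 and 1.25. Slc1a6, the Purkinje glutamate transporter EAAT4, was higher by 2.59, and Pvalb, the buffer parvalbumin, by 2.83 from a level of 11.52 ± 0.19 in cortex. Rora, the orphan receptor mutated in staggerer mice, differed by 2.25 (adjusted p = 4.53e-16). Ppp1r17, the G-substrate of cGMP-dependent kinase, was detected on no cortex array and was at least 3.41-fold higher. The members that did not pass were Clmn, at 0.15, and Foxp2, at -0.12 and detected on 2 cerebellum arrays and 1 cortex array.

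All 19 measured members of the 27 granule neuron genes were higher in cerebellum, with a median of 1.78 (the same at the bounds), and so were all 14 of these detected in both regions. Cbln1, the secreted bridge between parallel fibres and Purkinje dendrites, measured 14.01, 13.71, 13.87 and 13.82 on the cerebellum arrays and 8.59, 8.78, 8.67 and 8.70 on the cortex arrays. The difference was 5.17 (SE 0.21, adjusted p = 6.77e-18), although cortex also detected it on 4 arrays. Gabra6, the GABA-A subunit confined to granule cells in the cerebellar cortex, measured 8.00, 9.01, 8.28 and 7.27 on the cerebellum arrays and 4.32, 4.19, 4.28 and 4.16 on the cortex arrays. It was at least 8.73-fold higher (adjusted p = 2.62e-14), and its spread among cerebellum arrays was wide, at 8.14 ± 0.72 (mean and SD). Uncx, a homeobox factor, and Crtam, an adhesion molecule first known from T cells, were at least 12.1- and 12.0-fold higher. Neurod1, the bHLH factor that drives granule cell differentiation, was at least 9.12-fold higher (adjusted p = 3.87e-18). Calb2, which encodes calretinin, was higher by 3.48, Chn2, a Rac-inactivating chimaerin, by 3.05, and Etv1 by 1.78. The smallest differences among the 19 were those of Rbfox3, the NeuN antigen, at 0.80, and Nfix at 0.69.

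**Figure D3:**
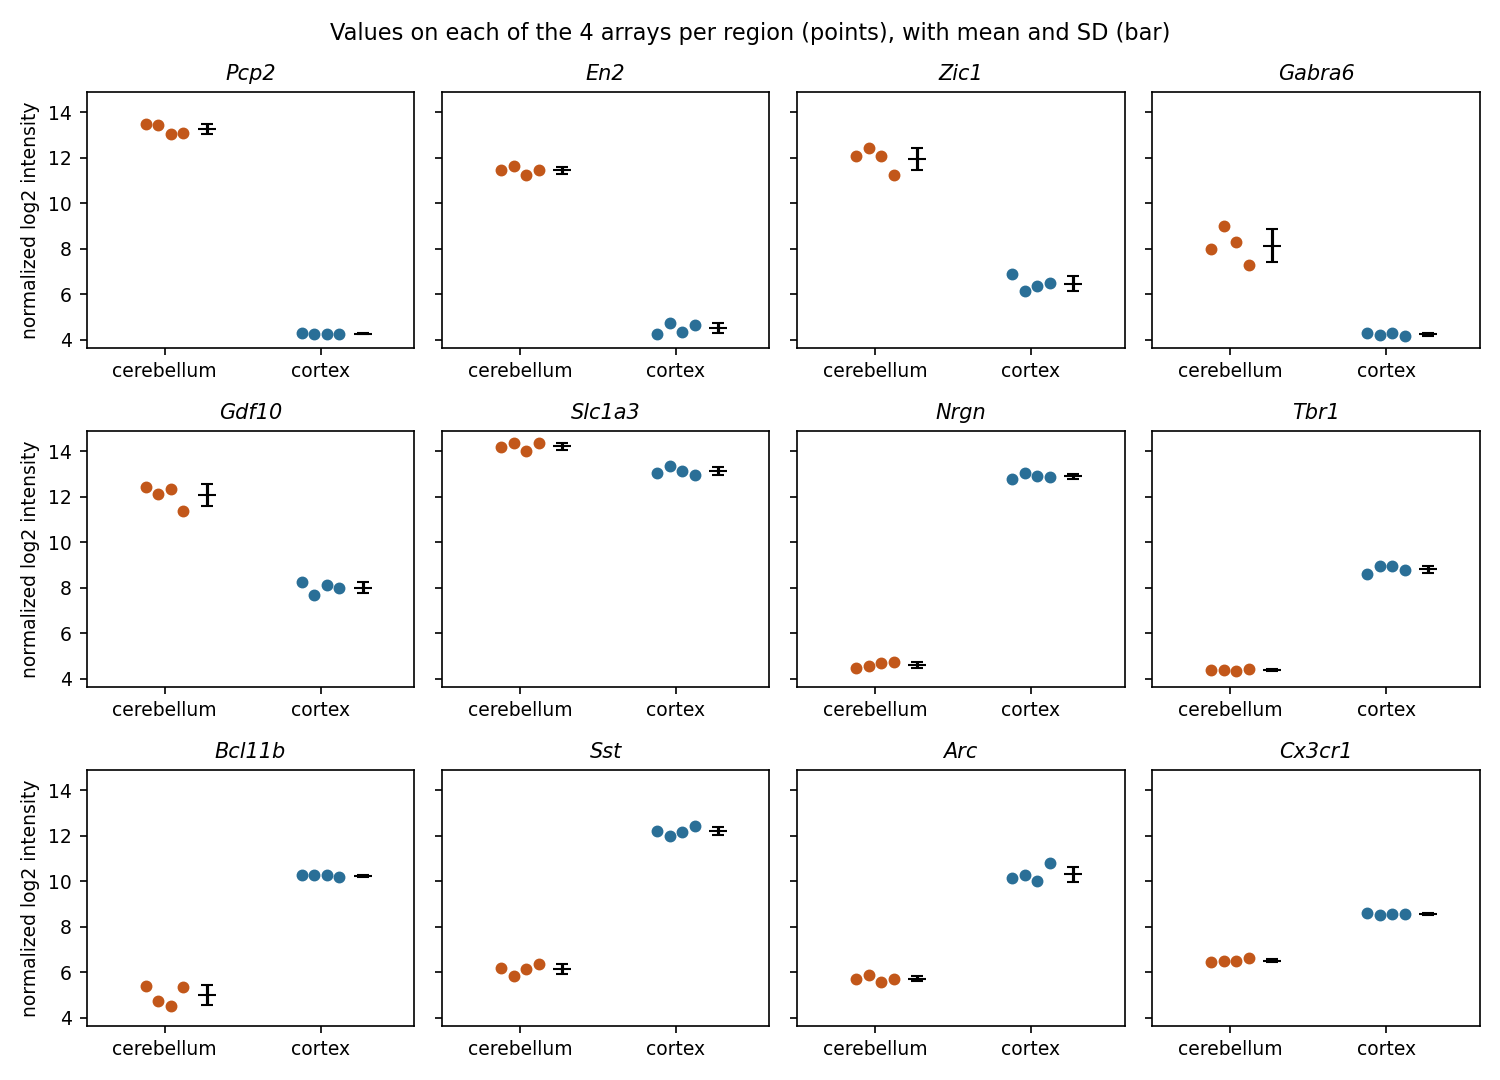
Each panel shows the normalized log2 intensity of a gene on the 4 cerebellum (orange) and 4 cortex arrays (blue), with mean and SD in black. The regions do not overlap in any of the 12 panels, and Gabra6 has the widest spread. In the region that lacks them, Pcp2, En2, Gabra6, Nrgn and Tbr1 sit near the background of the array.

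The 10 largest differences in cerebellum's favour among genes detected in both regions included several outside the lists of neuronal types. Il16, a cytokine precursor with a neuronal form found in cerebellum, measured 9.59 ± 0.38 against 5.07 ± 0.29, a difference of 4.52 (adjusted p = 6.11e-18). Eps8l2, an actin-capping protein, differed by 4.49 on its brightest probe but by 1.49 on another, which no cortex array detected. Col18a1, the collagen that yields endostatin, likewise differed by 4.58 and 1.84 on its 2 probes, the latter undetected in cortex. Among genes with no cortex signal, Zfp385c, a zinc finger gene, was at least 32.7-fold higher and Mybpc3, better known as the cardiac form of myosin-binding protein C, at least 12.8-fold. Mybpc3 measured 8.56, 8.42, 9.07 and 8.68 on the cerebellum arrays and 4.52, 4.21, 4.40 and 4.41 on the cortex arrays, so that all 4 cerebellum arrays carried it. Il20rb, a cytokine receptor chain, was at least 28.0-fold higher on its brightest probe, but the other probe, also undetected in cortex, gave only 0.64. Ptpn22, a phosphatase known from lymphocytes, was at least 10.7-fold higher (adjusted p = 1.72e-16).

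Genes of the less abundant cerebellar neurons were mixed, with 6 of 10 measured members of 15 higher and 4 lower (median 0.77, 0.51 at the bounds). Beside Tfap2b and Plcb4, Prkcd, a protein kinase C isoform, was higher by 2.37. Eomes, the T-box factor of unipolar brush cells, was at least 1.32-fold higher and close to background (adjusted p = 6.04e-06). Grp, gastrin-releasing peptide, was at least 6.63-fold lower in cerebellum and is also a peptide of cortical and amygdalar neurons.

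Bergmann glia genes were mostly higher in cerebellum: 9 of 12 measured of 16 listed, with 2 lower and a median of 0.87. Gdf10, a growth factor of the BMP family and a defining Bergmann gene, measured 12.45, 12.11, 12.34 and 11.38 on the cerebellum arrays and 8.24, 7.68, 8.13 and 7.97 on the cortex arrays. The difference was 4.07 (SE 0.17, adjusted p = 6.91e-18), again with array 20 lowest in cerebellum. Gria4, an AMPA receptor subunit that Bergmann glia and granule cells use, was higher by 2.92, Timp4, an inhibitor of matrix proteases, by 2.27, and the intermediate filament Vim by 1.73. Npy, which is chiefly a peptide of cortical interneurons, was lower at -2.94 (adjusted p = 2.13e-16).

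Genes of astrocytes at large divided. Of 30 measured of 35 listed, 12 were higher, 8 lower and 10 did not pass, with a median of -0.06 (-0.02 at the bounds). Slc1a3 and Slc1a2 encode the glutamate transporters GLAST and GLT-1, of which the former predominates in cerebellum and the latter in forebrain. Slc1a3 measured 14.19, 14.35, 14.01 and 14.35 on the cerebellum arrays and 13.05, 13.38, 13.15 and 12.95 on the cortex arrays, a difference of 1.09 (adjusted p = 1.12e-10). Slc1a2 went the opposite way, at 8.39 ± 0.16 against 10.05 ± 0.15 (SD, n = 4), a difference of -1.66 (adjusted p = 2.36e-11). S100b, a calcium-binding protein, was higher by 1.83 and Atp1b2, a sodium pump subunit, by 1.33. Hes5, a target of Notch, was lower at -2.66. Gpc5, a glypican, differed by -2.53 on its brightest probe and by -1.72 and -1.26 on others, which no cerebellum array detected. The direction of the astrocyte median was not stable, since it lay at 0.03 without cerebellum array 17 and also without cerebellum array 18.

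Excitatory neuron genes of the cortex were lower in cerebellum for 29 of 36 measured members of 44, with 2 higher and 5 not passing. The median was -2.67, with or without the bounds, against 0.02 over all genes. Of 27 detected in both regions, 21 were lower and 1 higher. Crym, a thyroid hormone-binding crystallin of deep-layer neurons, measured 4.71, 4.44, 4.82 and 4.74 on the cerebellum arrays and 11.14, 10.93, 11.20 and 11.17 on the cortex arrays. It was at least 73.3-fold lower (adjusted p = 3.92e-21). Icam5, or telencephalin, an adhesion molecule of telencephalic dendrites, was at least 21.6-fold lower. Enc1, an actin-binding kelch protein, was lower at -5.15 (SE 0.13, adjusted p = 1.32e-22), and Ngef, a guanine nucleotide exchange factor, at -5.08. Neurod1, listed here as a bHLH factor of excitatory neurons, was one of the 2 higher members, with the bound given above, and Nptx1, a neuronal pentraxin, was the other at 1.41. Striatal neurons share several of these genes, and in control striatum Ngef averaged 10.18 ± 0.35 and Enc1 10.76 ± 0.05.

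Among the 10 largest differences in cortex's favour, several encode proteins of forebrain synapses. Camkv, a pseudokinase that binds calmodulin at dendritic spines, measured 5.03, 4.85, 5.27 and 4.91 on the cerebellum arrays and 11.36, 10.65, 10.97 and 11.14 on the cortex arrays, a difference of -6.02 (adjusted p = 1.21e-20). Cpne6, a calcium-sensing copine of spines, went from 11.86 ± 0.17 in cortex to 6.24 ± 0.28 in cerebellum. Ctxn1, or cortexin, named for its place in cortex, differed by -5.79, and Mpped1, a metallophosphoesterase, by -5.43. Rprml, a relative of the cell cycle gene Reprimo, had the second largest bound, at least 73.5-fold lower (adjusted p = 1.55e-26). Rasl10a, a small GTPase gene, was at least 15.8-fold lower and Fibcd1, a lectin-like membrane protein, at least 16.7-fold. Fibcd1 is also on the list of hippocampal genes described below.

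Genes of forebrain inhibitory neurons were divided in direction. Of 22 measured of 31 listed, 12 were lower in cerebellum and 8 higher (median -1.22, -0.66 at the bounds), and among the 12 detected in both regions 5 were lower and 7 higher. Sst, somatostatin, a peptide of cortical interneurons, measured 6.20, 5.86, 6.16 and 6.38 on the cerebellum arrays and 12.23, 11.99, 12.16 and 12.45 on the cortex arrays, a difference of -6.06 (SE 0.17, adjusted p = 1.60e-21). Vip was at least 20.1-fold lower, and its level in control striatum was also low, at 4.91 ± 0.18. Crhbp, which sequesters corticotropin-releasing hormone, was at least 33.4-fold lower, and Tac1, the substance P precursor, differed by -4.75. Cort, or cortistatin, a relative of somatostatin, was at least 8.96-fold lower. The higher ones included Calb2 and Pvalb, which granule and Purkinje neurons also express, and Slc32a1, Nos1 and Reln, whose values are given below.

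**Figure D4:**
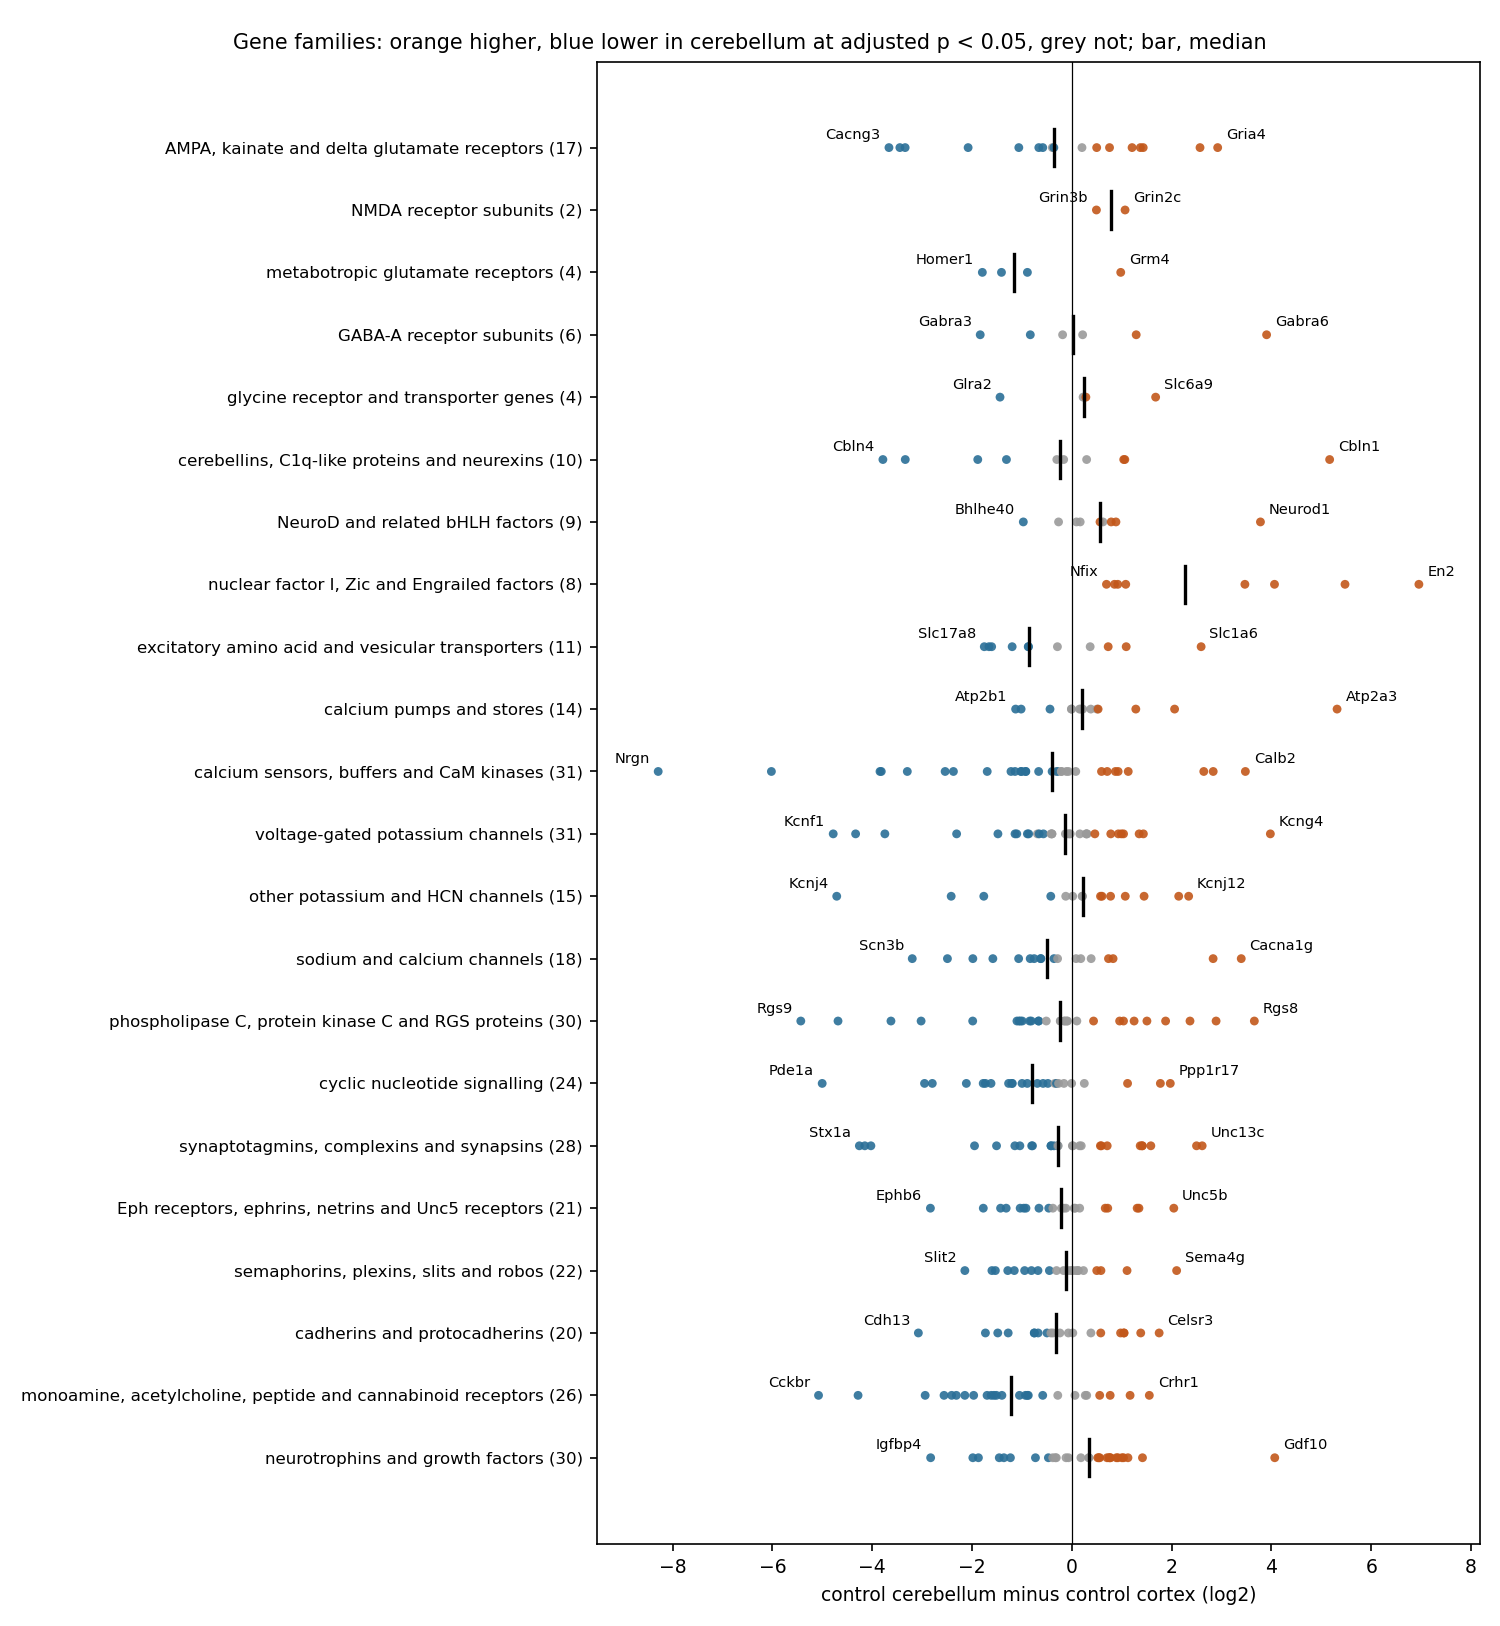
The gene families described below, drawn as in the plot of marker lists. Most families spread to both sides of 0, with members such as Gria4 and Cacng3, Kcng4 and Kcnf1, or Rgs8 and Rgs9 at their ends.

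Families of synaptic receptors changed member by member. Of 17 AMPA, kainate and delta receptor genes and their auxiliary proteins, 7 were higher and 8 lower in cerebellum (median -0.36, -0.27 at the bounds). Among pore-forming AMPA subunits, Gria4 was higher by 2.92 and Gria1 by 0.50, while Gria3 was lower at -0.58. Gria2 was lower at -0.36 (adjusted p = 0.0290), with another probe at -0.94. The auxiliary TARP proteins divided in the same way. Cacng2, or stargazin, whose loss causes the ataxia of stargazer mice, was higher by 1.37 (adjusted p = 1.51e-07), and Cacng5 by 1.43. Cacng3 went from 9.60 ± 0.04 in cortex to 5.94 ± 0.21 in cerebellum, a difference of -3.66 (adjusted p = 1.04e-17). The cornichons Cnih2 and Cnih3, which slow AMPA receptor gating, were lower, at -2.08 and -3.44. Neto1, a kainate receptor partner, was at least 6.83-fold lower, with other probes, also undetected in cerebellum, at -2.16 and -2.20. Grid2ip, or delphilin, a scaffold protein of Purkinje spines, was at least 3.60-fold higher.

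For NMDA receptors only Grin2c and Grin3b passed the detection filter, the latter near background and lost under median scaling (adjusted p = 0.307). Grin2c, the subunit that granule cells acquire as they mature, was higher by 1.07 (adjusted p = 0.000432), with a single cortex array detecting it. Of 4 genes of metabotropic receptors and their scaffold, Grm4, a parallel fibre receptor, was at least 1.52-fold higher, and Grm7 and Grm8 were lower at -0.89 and -1.41. Homer1, their scaffold, differed by -1.79, or -1.59 and -0.58 on other probes. Of 6 GABA-A subunits, Gabrd, which forms extrasynaptic receptors with Gabra6, was higher by 1.29, and Gabra3 and Gabrb1 were lower at -1.83 and -0.83. The glycine transporter Slc6a9 was higher by 1.68, while the glycine receptor subunit Glra2 was lower at -1.44. Cerebellins showed opposite members: Cbln1 was high in cerebellum, Cbln2 was at least 2.54-fold lower and Cbln4 lower at -3.78 (adjusted p = 5.88e-19). The related C1ql2 was lower at -3.34, and C1ql3 at least 1.89-fold lower.

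Vesicular transporters mark the transmitter of a neuron. Slc17a7, VGLUT1, which granule and cortical neurons both use, was lower in cerebellum at -1.20 (adjusted p = 0.0180), and Slc17a6, VGLUT2, at -0.87. Slc17a8, VGLUT3, was at least 2.62-fold lower. Slc32a1, the vesicular carrier of GABA and glycine, was higher by 0.73. Over all 11 transporters measured, 3 were higher and 6 lower (27.3 and 54.5%).

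Of 14 calcium pump and store genes, 4 were higher and 3 lower (28.6 and 21.4%), near the 23.9 and 21.8% of all genes, so the values below describe single members. Ryr1, the ryanodine receptor of skeletal muscle that Purkinje cells also use, measured 7.54, 7.68, 7.85 and 7.43 on the cerebellum arrays and 5.37, 6.07, 5.53 and 5.29 on the cortex arrays, a difference of 2.06 (adjusted p = 7.21e-09). Its relative Ryr3 was lower at -1.02. Among plasma membrane pumps Atp2b3 was higher by 1.28, whereas Atp2b1 was lower at -1.13. The widely used SERCA2 pump, Atp2a2, measured 13.18 ± 0.05 and 13.19 ± 0.14 and did not pass (adjusted p = 0.974). Its other probe gave 0.24, which did not pass either.

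Of 31 calcium sensors, buffers and calmodulin kinases, 17 were lower and 8 higher (54.8 and 25.8%, median -0.39). The kinase Camk2a, the alpha subunit of forebrain spines, measured 6.70, 7.28, 7.43 and 6.95 on the cerebellum arrays and 10.78, 10.80, 10.95 and 11.11 on the cortex arrays, a difference of -3.82 (SE 0.14, adjusted p = 5.88e-19). The delta subunit Camk2d went the other way, at 1.13, and the beta subunit Camk2b did not pass (-0.21, adjusted p = 0.187) except under median scaling (adjusted p = 0.00924). Hippocalcin relatives also split: Hpca and Hpcal4 were lower at -2.37 and -3.84, and Hpcal1 was higher by 2.64. Necab1 differed by -3.30 on its brightest probe, but its other probe gave -0.40 and did not pass, whereas Necab2 differed by -2.54.

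Among 31 voltage-gated potassium channel genes and partners, 8 were higher (25.8%, near the 23.9% of all genes) and 11 lower (35.5%, against 21.8%). Of the 27 detected in both regions, 8 were higher and 8 lower. Kcna1, the Kv1.1 subunit of basket cell terminals, measured 6.57, 6.36, 6.26 and 6.44 on the cerebellum arrays and 5.43, 4.81, 4.74 and 4.90 on the cortex arrays, a difference of 1.43 (adjusted p = 3.30e-06). Kcnd2, a Kv4 subunit of granule cells, and its partner Kcnip1 were higher by 1.04 and 1.35. Kcnip2, another Kv4 partner, was lower at -2.31. Silent subunits, which form channels only with others, included higher and lower members. Kcng4 was higher by 3.98 (other probe 1.88, undetected in cortex). Kcnf1 went from 9.39 ± 0.24 in cortex to 4.61 ± 0.30 in cerebellum, and Kcnv1 was at least 13.2-fold lower. Kcnh3, an ether-a-go-go type channel, was lower at -3.75.

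Of 15 inward rectifier, leak and HCN channel genes, 7 were higher and 4 lower (46.7 and 26.7%). Kcnk3, or TASK-1, a leak channel of granule cells, was higher by 2.14 and Kcnj12 by 2.34. Kcnj4 was lower at -4.71 (adjusted p = 1.94e-17). Among 18 sodium and calcium channel genes, 4 were higher and 10 lower (22.2 and 55.6%, median -0.49). Cacna1a, the P/Q-type channel of Purkinje cells, measured 8.32, 8.38, 8.22 and 7.57 on the cerebellum arrays and 5.20, 5.65, 5.29 and 5.03 on the cortex arrays, a difference of 2.83 (adjusted p = 7.15e-12). Cacna1g, a T-type channel, was higher by 3.39 (other probe 2.23, undetected in cortex), while its T-type relative Cacna1h was lower at -2.49. Scn3b, a sodium channel subunit, was lower at -3.20 (other probe -2.08, undetected in cerebellum).

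The list of phospholipase C, protein kinase C and RGS genes, with G protein subunits, gave 9 higher and 13 lower of 30 measured (30 and 43.3%). RGS proteins covered the whole range. Rgs9, a striatal and retinal member, measured 5.34, 4.65, 4.58 and 4.74 on the cerebellum arrays and 10.41, 10.34, 10.22 and 10.06 on the cortex arrays, a difference of -5.43 (adjusted p = 1.12e-18), and Rgs4 was lower at -4.68. Rgs8 was high in cerebellum, as given with the Purkinje genes. Gamma subunits differed likewise: Gng13 was higher by 1.88 and Gng4 lower at -3.02, while Gng7 differed by -3.62 on one probe and by -0.61 on another.

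Cyclic nucleotide genes were mostly lower in cerebellum, 16 of 24 against 3 higher (median -0.79). The calmodulin-dependent phosphodiesterases Pde1a and Pde1b were lower at -5.00 and -2.79 (adjusted p = 1.85e-19 and 4.32e-14), and the dual-specificity Pde2a at -2.95. Adenylyl cyclases divided: Adcy1, a calmodulin-stimulated form, was higher by 1.77 and Adcy2 lower at -1.73. Nos1, neuronal nitric oxide synthase, was at least 1.56-fold higher.

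Of 28 genes for synaptotagmins, complexins, synapsins and their partners, 9 were higher and 13 lower (32.1 and 46.4%, against 23.9 and 21.8% of all genes). The median was -0.28 (-0.14 at the bounds). Stx1a, a plasma membrane SNARE, measured 7.70, 7.82, 7.75 and 8.17 on the cerebellum arrays and 12.03, 12.04, 12.24 and 12.16 on the cortex arrays, a difference of -4.26 (SE 0.11, adjusted p = 4.52e-22). Unc13c, the Munc13-3 priming factor of parallel fibres, was higher by 2.61 (adjusted p = 1.31e-11). The synaptotagmins, vesicle proteins of which several sense calcium, spread widely, with Syt9 higher by 2.50, Syt12 by 1.41, Syt1 lower at -1.51, Syt5 at -4.03 and Syt16 at -4.15. Cplx1 measured 13.43 ± 0.12 and 13.41 ± 0.10 and did not pass (difference 0.02).

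Guidance and adhesion genes showed smaller differences. Of 21 Eph, ephrin, netrin and Unc5 genes, 5 were higher (23.8%, near the 23.9% of all genes) and 9 lower (42.9%, against 21.8%). Among the 15 detected in both regions, 4 were higher and 5 lower. The netrin receptors Unc5b and Unc5c were higher by 2.04 and 1.31, the latter known from the cerebellar malformation of its mouse mutant, while Unc5a was lower at -0.92. Ephb6 was at least 5.08-fold lower. Of 22 semaphorins, plexins, slits and robos, 4 were higher and 9 lower (18.2 and 40.9%). Sema4g was higher by 2.10, Slit2 lower at -2.14 and Nrp1 at -1.60. Of 20 cadherins and protocadherins, Celsr3 was highest in cerebellum's favour at 1.75 and Cdh13, or T-cadherin, lowest at -3.07 (adjusted p = 4.69e-12 and 7.62e-16).

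Receptors for monoamines, acetylcholine and peptides were lower in cerebellum for 18 of 26 measured of 50 listed, and higher for 4 (median -1.22, -0.95 at the bounds). Among 13 detected in both regions, 8 were lower and 3 higher. Cckbr, the cholecystokinin receptor of brain, measured 5.82, 5.37, 4.98 and 5.71 on the cerebellum arrays and 10.46, 10.36, 10.71 and 10.63 on the cortex arrays, a difference of -5.07 (adjusted p = 4.50e-21). Drd1, the D1 dopamine receptor, was at least 15.4-fold lower, Chrm3, a muscarinic receptor, at least 4.73-fold, and Htr1a, a serotonin receptor, at least 3.59-fold. Npy1r was lower at -2.94. The higher members included Crhr1, the receptor of corticotropin-releasing hormone, a peptide of climbing fibres, at 1.55 (adjusted p = 1.40e-05), and the nicotinic subunit Chrnb2 at 1.17. The alpha subunit it often joins, Chrna4, was lower at -1.05.

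Growth factor genes were divided, 14 higher and 8 lower of 30 measured (46.7 and 26.7%). Beside Gdf10, Ret, the receptor kinase of the GDNF family, was at least 2.17-fold higher, and Fgf9 and Vegfa were higher by 1.13 and 1.04. IGF-binding proteins showed opposite members, with Igfbp5 higher by 0.74 and Igfbp4 and Igfbp6 lower at -2.83 and -1.87. Bdnf measured 8.11 ± 0.52 and 8.49 ± 0.33 and did not pass (difference -0.38, adjusted p = 0.186), but it was called lower without cerebellum array 18 and over the mean of its probes (adjusted p = 0.0494 and 0.0102).

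Immediate early and activity-regulated genes were lower in cerebellum for 13 of 23 measured of 30, with none higher and a median of -1.36. Arc, whose RNA and protein move to active dendrites, measured 5.69, 5.87, 5.59 and 5.69 on the cerebellum arrays and 10.13, 10.28, 10.00 and 10.79 on the cortex arrays, a difference of -4.59 (SE 0.22, adjusted p = 1.27e-16). Nptx2, a pentraxin that gathers AMPA receptors, was lower at -3.99 and Vgf, a neuropeptide precursor, at -3.34. Junb followed at -2.86 (adjusted p = 5.27e-12). Among the zinc finger factors Egr1 went from 12.55 ± 0.17 to 9.74 ± 0.35, and Egr2 was at least 5.14-fold lower. Fos, Jun and Dusp1 did not pass, at -0.66, 0.27 and 0.33 (adjusted p = 0.0899, 0.251 and 0.258). Fos was called lower without cerebellum array 20 (adjusted p = 0.0282) and in a fit of the 8 control arrays alone (0.0221).

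Microglial genes were lower in cerebellum for 21 of 27 measured of 34 listed, with none higher and a median of -1.37 (-1.36 at the bounds), beside 21.8% lower over all genes. Of 23 detected in both regions, 18 were lower. Cx3cr1, the fractalkine receptor, measured 6.46, 6.49, 6.50 and 6.61 on the cerebellum arrays and 8.59, 8.50, 8.57 and 8.57 on the cortex arrays, a difference of -2.05 (SE 0.14, adjusted p = 4.72e-13). The 4 arrays of each region lay close together for this gene, and the regions did not overlap. Fcrls, a receptor of resident microglia, was lower at -2.18, and P2ry13 and Selplg, a purine receptor and a selectin ligand, at -1.89 and -1.89. The summed linear signal of the 27 genes ran from 6071 to 7718 on cerebellum arrays and from 10705 to 13494 on cortex arrays. Lyz2, which other myeloid cells also express, did not pass at 0.03.

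Genes of mature oligodendrocytes differed little. Of 25 measured of 32 listed, 4 were higher and 1 lower, a smaller share in both directions than the 23.9 and 21.8% of all genes, and 20 did not pass. The median of 0.21 became -0.03 under median scaling, with 2 genes higher and 3 lower, so its direction depended on the scaling, and the count of lower genes ran from 0 to 2 as arrays were left out. Trf, transferrin, was higher by 1.10 (adjusted p = 3.24e-05) and Car2, carbonic anhydrase, by 0.86. Mbp, myelin basic protein, differed by 0.12 on its brightest probe and did not pass, while its other probes gave -0.98 and 0.41. Oligodendrocyte precursor genes gave 5 lower and none higher of 11 measured. Ncan, or neurocan, a proteoglycan of nets and precursors, went from 9.65 ± 0.17 to 7.05 ± 0.25, a difference of -2.60, and Pdgfra, the receptor that defines precursors, was lower at -0.95 (adjusted p = 1.40e-05).

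Of 28 vascular genes measured, 6 were higher (21.4%, near the 23.9% of all genes) and 1 lower (3.57%, against 21.8%), with Pltp, a lipid transfer protein, highest at 1.39 and Egfl7, an endothelial matrix protein, lowest at -0.95. The higher count was 3 without cerebellum array 20 and also without cortex array 10. Markers of choroid plexus and ependyma, which line the ventricles and can be taken along with cerebellar tissue, were higher in cerebellum for 8 of 11 and lower for none. Their median was 1.76, and their summed signal ran from 19175 to 23917 on cerebellum arrays, from 9790 to 16039 on cortex arrays and from 1427 to 3196 on control striatum arrays. Otx2, a factor of choroid plexus, measured 8.40, 8.70, 9.08 and 8.69 on the cerebellum arrays and 6.00, 5.93, 5.81 and 5.66 on the cortex arrays, a difference of 2.87 (adjusted p = 1.13e-12). Clic6 and Kl, or klotho, were higher by 2.13 and 2.02. Ttr, the most abundant choroid protein gene, did not pass at 0.75 in the fit of all arrays (adjusted p = 0.472), and passed in a fit of the 8 control arrays alone (adjusted p = 0.000211). No choroid marker measured was undetected in a region. The part of choroid tissue in the vascular, growth factor and matrix results was not tested.

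Matrix genes gave 10 higher and 4 lower of 26 measured (38.5 and 15.4%, against 23.9 and 21.8% of all genes). Beside Col18a1, Sparc, a matricellular protein of Bergmann glia, was higher by 1.95, and Agt, angiotensinogen, which astrocytes make, by 1.89 (adjusted p = 2.60e-15 and 7.82e-10). Reln, the layering signal that granule cells secrete, was higher by 1.78 and belongs to the inhibitory neuron list too. Among thyroid hormone and retinoid genes, 4 of 20 were higher and 7 lower (20 and 35%). The higher count was 2 without cerebellum array 18. Of the 14 detected in both regions, 4 were higher and 4 lower. Hr, hairless, a target of thyroid hormone in neonatal rat cerebellum, was higher by 1.62, and Rxrg, a retinoid X receptor, was at least 4.22-fold lower.

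Genes whose mutations cause inherited ataxia gave 7 higher and 5 lower of 23 measured of 42 listed (30.4 and 21.7%). Cacna1a, Cacna1g, Kcna1 and Slc1a3 were among the higher ones, with the values given above. Among the lower ones was Pdyn, the prodynorphin gene, whose brightest probe gave -5.84 and another -2.37. Syne1, a nuclear envelope spectrin repeat protein, was lower at -3.44, and Ppp2r2b, Atxn1 and Atxn10 made up the rest at -2.05, -0.85 and -0.66. The call of Atxn10 was lost without cerebellum array 20, cortex array 9, 11 or 12, the filter on detection or the intensity trend, with an adjusted p between 0.0517 and 0.213. With 30.4% of measured members higher and 21.7% lower, the list stood near the 23.9 and 21.8% of all genes.

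Of 19 cell cycle genes measured, 3 were higher and 2 lower (15.8 and 10.5%, against 23.9 and 21.8% of all genes), and median scaling gave 2 higher and 5 lower. Of 6 hedgehog genes measured, 3 were higher and 1 lower. The lower cell cycle genes numbered 4 without cerebellum array 19 or cortex array 10 and 1 without cerebellum array 18. Ccnd2, cyclin D2, which granule cell precursors use, belongs to both lists and was lower, going from 9.83 ± 0.06 in cortex to 7.33 ± 0.34 in cerebellum (difference -2.51, adjusted p = 7.58e-13). The hedgehog receptor genes Ptch1 and Smo were higher by 0.70 and 0.69, and Shh by 0.62. Ptch1 missed the threshold under median scaling (adjusted p = 0.0546) and Shh over the mean of its probes (0.0893). Oxidative phosphorylation genes gave 7 higher and 0 lower of 25 with all differences under 1, but 1 higher and 4 lower under median scaling, and 1 was lower without cerebellum array 20 or cortex array 10. Ribosomal protein genes gave 0 higher and 6 lower of 23, and 18 lower under median scaling. Common reference genes were not level: Gapdh differed by -0.25 and Tubb5 by -0.78 (adjusted p = 0.00913 and 8.40e-08).

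Markers of neighbouring forebrain tissue were part of the comparison, because cortex pieces can carry striatum or hippocampus. Of 15 striatal projection neuron genes measured, 13 were lower in cerebellum. Their summed signal ran from 2105 to 2390 on cerebellum arrays, from 11089 to 12603 on cortex arrays and from 21607 to 33637 on control striatum arrays. Rgs9, Pdyn, Tac1 and Meis2 led this group, the last at -4.60. Of 10 hippocampal genes, 6 were lower and 2 higher (60 and 20%, against 21.8 and 23.9% of all genes). The higher count was 1 without cerebellum array 17 or 20 or cortex array 9 or 12. Among the 7 detected in both regions, 3 were lower and 2 higher. Pou3f1, a POU factor of CA1 and cortical neurons, was lower at -3.44. Fibcd1 and C1ql2, both lower with the values given above, belong to the hippocampal list too. The defining striatal gene Gpr6 was at least 2.07-fold lower in cerebellum, and Isl1 at least 3.86-fold. Cortical neurons express several of these genes themselves, and the part of neighbouring tissue in the cortical results was not tested. Of 8 brainstem and monoamine genes measured of 22, 5 were lower and none higher in cerebellum, with Tph2, the serotonin synthesis enzyme, at -1.13.

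Thap1 itself measured 5.24, 4.53, 5.08 and 5.23 on the cerebellum arrays and 5.74, 5.37, 5.55 and 4.67 on the cortex arrays. The regions overlapped, and the difference of -0.31 did not pass (SE 0.22, adjusted p = 0.259), although it did without cortex array 12, its lowest in that region (difference -0.53, adjusted p = 0.0433). It was detected on 3 of 4 arrays in each region, near background. Of its other probes, one gave -0.49 and passed (adjusted p = 0.0239, detected on 2 cerebellum and 4 cortex arrays), and one gave -0.06 and did not (adjusted p = 0.817).

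The knockout mice give the same regional comparison in 8 arrays that share none with the controls. Both comparisons came from 1 fit, with joint normalization and a shared estimate of spread per gene. The calls in the 2 genotypes are therefore not independent. There, 2612 genes were higher in cerebellum (23.5%) and 2328 lower (20.9%). Of the 777 genes at least 2-fold higher in control cerebellum, 767 were called higher again (98.7%), and of the 847 at least 2-fold lower, 844 were called lower again (99.6%). Over all called genes, 2123 of 2655 (80.0%) and 1997 of 2418 (82.6%) were called in the same direction. Zic1 and Sst differed by 5.28 and -6.07 in the knockout arrays, against 5.47 and -6.06 in the controls. Across all genes, which are not replicates, the 2 sets of differences correlated at 0.962. List medians in the knockout arrays were 2.03 for Purkinje, 1.63 for granule and -2.44 for cortical excitatory genes, against 2.11, 1.78 and -2.67 in the controls. Other medians lay further apart: 0.67 against 0.21 for myelin genes, 2.33 against 1.76 for choroid plexus genes and -1.004 against -1.37 for microglial genes. The differences of these medians were not tested.

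**Figure D5:**
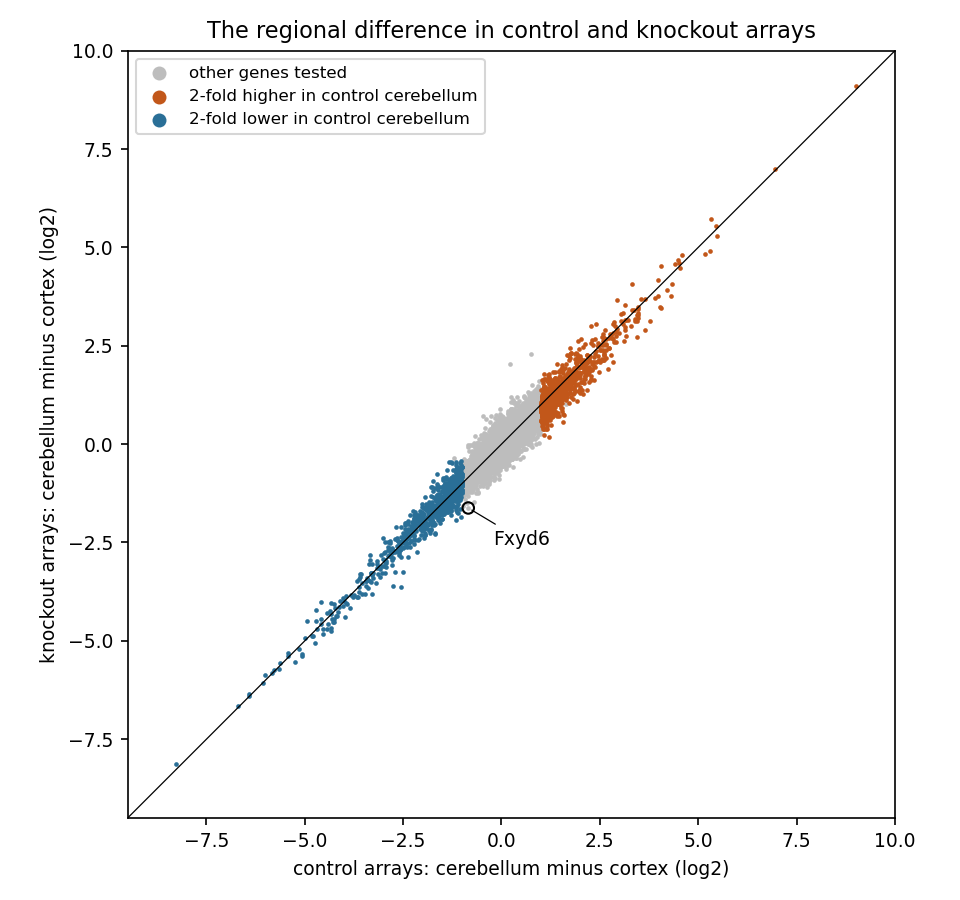
Each point is a gene, with the log2 difference between cerebellum and cortex in control arrays on the x axis and in knockout arrays on the y axis; the line marks equal values. The orange and blue points lie along the line, and the circle marks Fxyd6, the gene whose 2 values differed by the test.

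A test of the difference itself, knockout minus control, called 1 of 11114 genes (0.009%), and 434 genes at an unadjusted p under 0.05. The gene was Fxyd6, which encodes phosphohippolin, a regulator of the sodium pump. In the controls it measured 11.51, 11.51, 11.23 and 11.15 on the cerebellum arrays and 12.05, 12.21, 12.28 and 12.24 on the cortex arrays, a difference of -0.84 (adjusted p = 1.49e-08). In the knockout arrays the difference was -1.62, so that the 2 differed by -0.78 (SE 0.13, adjusted p = 0.0313). The call was lost when control cerebellum array 17 or 18 or control cortex array 9, 10 or 12 was left out, with an adjusted p between 0.0674 and 0.149. It was also lost under median scaling (adjusted p = 0.698), without the filter on detection (0.0855) and without the intensity trend (0.345). Depdc1b, a gene near background that was detected on 1 of the 8 control arrays, was the only one called in opposite directions, lower in control cerebellum (adjusted p = 0.0141, or 0.0508 without cerebellum array 20) and higher in knockout cerebellum (adjusted p = 0.0210). The test of that difference did not pass (adjusted p = 0.990).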

How the data were processed

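RNA of 3 brain regions from 2 genotypes had been extracted with TriZol from frozen tissue, amplified, labelled with biotin and hybridised to Illumina bead arrays, 4 arrays for each of 6 groups, per the labels' protocols. The authors deposited a linear intensity and a detection p-value per probe and array, exported from BeadStudio per the submitters' processing notes. They also deposited a second table of normalized linear intensity for the same arrays, with medians of 11.6 on all 8 arrays compared and some values below 0; how it was normalized is not stated there, and it served as an alternative (floor 1, offset 16, log2). No array pair held identical values. Bead arrays give no counts, so the number of arrays limits the precision.

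The intensities were background-corrected (limma 3.58.1, nec with detection p, offset 16), quantile normalized and put on a log2 scale in R 4.3.3. Of 25697 probes, 14994 were kept, those detected (p under 0.01) on 4 or more of 24 arrays. Symbols came from the platform annotation, with 23978 probes having 1 gene, 1719 none and 0 several, and 8 symbols updated. The brightest probe stood for each of 2755 genes with several, and 876 unnamed probes were tested under their own identifiers. limma (lmFit, eBayes with intensity trend) was fitted over all 24 arrays with 1 mean per group, and the contrast of the 2 control groups was tested with Benjamini-Hochberg adjustment over 11114 genes. On simulated data with independent normal noise, log2 changes of 0.5, 1 and 2 were put into 67, 67 and 66 of 11114 genes. The changed genes all lay above the detection limit in cortex. The fit recovered 47.8, 89.6 and 100% of these changes, with 10 false calls. Far more genes differed in the real comparison (45.6%), so these rates do not carry over to it or to genes near background. Promoter sequences are RefSeq's on GRCm38.p6.

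The genes, the 48 lists and the tests were chosen with earlier results of these data known. The genes named are the 10 largest differences and the 10 largest bounds in each direction, the up to 4 largest called members of each list, members of families, Thap1 and genes past the genotype test. Outside this rule, the following were chosen after their values were seen: Atp1b2, Atxn1, Atxn10, Chn2, Clmn, Cort, Depdc1b, Dusp1, Egr1, Egr2, Eomes, Etv1, Fos, Foxp2, Gapdh, Gbx2, Gpr6, Irx2, Irx3, Irx5, Isl1, Jun, Lhx5, Lyz2, Mbp, Meis1, Nptx1, Ppp2r2b, Rbfox3, Reln, Tfap2a, Ttr, Vim and Zbtb18. Alternatives were no background correction, an offset of 50, median scaling, the authors' normalized intensities, no filter, the mean of all probes, the control arrays alone, array weights, no trend, and leaving out each control array.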

Additional observations from a re-analysis of the deposited data

Results flagged for a closer look

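For 30 of 480 sets of 4 arrays, a named gene in a region, 1 array lay far from the other 3, by the gap to its nearest neighbour over the range of the 4 (Dixon's criterion). Chance flags about 1 in 20 such sets. On cerebellum array 17, Slc6a9 at 10.85 and Unc5b at 9.17 lay above the other 3. On cerebellum array 18, Cdh13 at 5.71, Jun at 7.21, Junb at 5.45 and Ret at 5.67 lay below the other 3. On cerebellum array 19, Adcy2 at 8.45 and C1ql2 at 5.17 lay below the other 3, and Atp1b2 at 12.54, Gria1 at 11.05, Htr1a at 4.83, Kcnk3 at 8.79, Slc1a6 at 8.05 and Uncx at 9.09 lay above the other 3. On cerebellum array 20, Crhr1 at 7.27 and Sparc at 12.64 lay below the other 3. On cortex array 9, Gng4 at 8.16 lay below the other 3, and Neurod1 at 4.77 and Trf at 11.18 lay above the other 3. On cortex array 10, Ccnd2 at 9.75, Hpcal4 at 11.85 and Nfib at 9.74 lay below the other 3, and Gria1 at 10.74, Lhx1 at 5.25 and Ryr3 at 6.74 lay above the other 3. On cortex array 12, Bcl11b at 10.17 lay below the other 3, and Fos at 9.24, Junb at 9.38, P2ry13 at 7.93 and Unc5b at 7.17 lay above the other 3. These levels are normalized log2 intensities, and the activity genes Fos and Junb were both highest on cortex array 12, and Jun and Junb both lowest on cerebellum array 18.

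The region difference of Fxyd6 was -0.84 in the control arrays and -1.62 in the knockout arrays, and the test of the difference between genotypes gave -0.78 (SE 0.13, adjusted p = 0.0313, limma). In the 4 groups its level was 11.35 in control cerebellum, 12.20 in control cortex, 10.72 in knockout cerebellum and 12.34 in knockout cortex. It was the only gene of 11114 called by that test, and the call was lost when any of 5 control arrays was left out.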

How the results depend on the processing

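No paired analysis was possible because the array numbers of the labels are not shared between the 2 groups. Of 226 named genes past the threshold, 221 kept their call and direction under all 9 alternatives on normalization, filtering and modelling and also without each control array, and 224 when only the arrays left out are considered. Atxn10, Depdc1b, Grin3b, Ptch1 and Shh were the exceptions, with the values given beside them. Gria2 was not part of the counts of named genes. Over all genes, leaving out each array gave 2418 to 2549 higher and 2233 to 2313 lower. Median scaling gave 2288 higher and 2696 lower, so that 45.9% of calls were higher in place of 52.3%; the median of all genes was -0.05 in place of 0.02. The size of differences depended on the background: without background correction 343 genes were at least 2-fold higher and 412 lower, and 504 were higher with an offset of 50. Of 240 named genes, 132 and 84 moved by over 1.5 times in these 2 settings, for example Zic1 to 4.49 and Sst to -4.90 without correction. The medians of lists shrank likewise without correction, for hindbrain patterning factors to 1.09 from 2.58, for microglia to -0.65 from -1.37 and for inhibitory neurons to -0.38 from -1.22. The mean of all probes moved 10, among them Col18a1 to 3.21 and Il20rb to 2.96 on the fitted scale. The test between genotypes, added after seeing the data, called 0 genes under median scaling (Fxyd6 at -0.64), without the filter and without the trend (both -0.78), and between 0 and 1 gene as arrays were left out (-0.79 to -0.73 where the call was lost); the cause was not tested. The count of unadjusted p under 0.05 in this test was 434. Low signal limits the size of differences, since genes detected in 1 region give only bounds.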

Other observations

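The nuclear factor I genes, which act late in granule cell differentiation, were higher in cerebellum together with the Zic and Engrailed genes of the same list, for 8 of 8 measured members. Their own differences were smaller: Nfic measured 8.92 ± 0.09 against 7.83 ± 0.21 (SD, n = 4), a difference of 1.08, and Nfib differed by 0.85 (adjusted p = 2.46e-06 and 2.34e-05). Of the bHLH factors related to NeuroD, Tcf12, a partner of tissue-specific bHLH factors, was higher by 0.88, and the inhibitor Id4 by 0.79. Bhlhe40, a repressor that responds to activity and to the circadian clock, was lower at -0.97 (adjusted p = 9.73e-05). Nrxn2, a presynaptic receptor of the family that cerebellins bind, was higher by 1.06, and Cbln3, a partner of Cbln1, at least 1.26-fold higher on 3 of 4 cerebellum arrays.

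Receptors of growth factors differed within families. Ntrk3, the receptor of neurotrophin 3, was higher in cerebellum by 0.92 (adjusted p = 4.65e-08), whereas Ntrk2, the receptor of BDNF, was lower at -0.47 (adjusted p = 0.000833). Fgfr1 was higher by 0.89. The ligand genes Fgf10 and Pdgfa were lower at -1.23 and -0.73.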
